A study of Rattus norvegicus with 6 samples.

Results

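Kinesins are motor proteins that burn ATP to move along microtubules or to take their ends apart. One set of them builds the mitotic spindle, holds chromosomes on it and completes cytokinesis, and the proliferating cell makes these motors mainly around mitosis. The other set carries vesicles, organelles and ciliary cargo in dividing and resting cells alike. Kif genes were examined here in primary nucleus pulposus cells, which come from the soft centre of an intervertebral disc, with and without serum. Members were all rows whose symbol begins with Kif followed by a digit, which gave 38 of the 17093 genes in the deposited tables. Of these 38, 26 reached 1 in 3 or more of the 6 libraries and were tested, among 11493 genes tested in all. A pair of rows met the symbol rule without being ordinary motor genes. Kif1bp, named Kifbp in the rat reference table, encodes a protein that binds kinesins, and Kif4b is listed there as a pseudogene.

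RNA came from male rat cells of passages 3 to 6, the strain not being named. Serum starvation meant 48 h in DMEM-F12 medium without fetal bovine serum (3 libraries), and control cells had the same medium with 10% serum (3 libraries). The labels do not tie replicates to different animals or cultures. P-values therefore set the group difference only against the spread of these samples. That spread may be technical, so the p-values may not carry over to other animals or cultures. Total RNA was depleted of ribosomal RNA and sequenced from random primers, giving 1 value per gene and library, treated as FPKM, a fragment count scaled to gene length and to the library.

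Values summed to 447788 to 473452 in serum-starved libraries and to 522165 to 530095 in control libraries, and the depth in reads is unknown. Of the nucleus pulposus markers, 10 of 14 were in the tables. Their summed level was 214 to 233 in serum-starved and 251 to 290 in control libraries, with Krt18 listed at 0 in every library and Col2a1 and Cd24 below 1 throughout. Single markers went opposite ways, and of the 7 tested 4 fell and 2 rose. Acan, the proteoglycan aggrecan, was at 3.27, 2.67 and 3.22 in serum-starved and 82.61, 102.75 and 47.2 in control libraries. Pax1, a transcription factor of the embryonic spine, was at 46.23, 56.27 and 51.15 in serum-starved and 23.58, 29.3 and 29.71 in control libraries. Markers of other cells were low. The 5 neuronal markers found, of 9, summed to 1.46 to 1.81 in serum-starved and 1.48 to 1.75 in control libraries. The 4 Schwann cell markers, of 4, summed to 1.15 to 1.46 in serum-starved and 0.41 to 0.79 in control libraries, with Sox10 at 0. The 4 macrophage markers found, of 6, summed to 2.94 to 4.17 in serum-starved and 1.69 to 2.54 in control libraries, with Lyz2, Csf1r and Adgre1 below 1 throughout. The 3 endothelial markers found, of 6, summed to at most 0.79 in serum-starved and 1.19 in control libraries, and the 1 erythroid marker found, of 5, never passed 0.03. The nucleus pulposus, Schwann cell and macrophage sums moved with the groups, and their part in the results was not tested.

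Serum-starved cells held little transcript of 11 kinesins that work in cell division, while most other kinesins stayed nearer their control level. The division set was Kif2c, Kif4a, Kif11, Kif14, Kif15, Kif18a, Kif18b, Kif20a, Kif20b, Kif22 and Kif23, drawn with earlier results of these data known. Its 11 tested genes stood at 1.25% (Kif14) to 22.1% (Kif18a) of the control mean. Of these, 6 reached the filter through control libraries alone and so had to differ. The 5 seen at 1 or above in some serum-starved library (Kif11, Kif18a, Kif20a, Kif22 and Kif23) all fell. Kif11, Kif20a and Kif23 still needed control libraries to pass the filter, being at 1 or above in 1, 2 and 2 serum-starved libraries. Only Kif18a and Kif22 were at 1 or above in all 3 serum-starved libraries. The other 14 tested motors comprised 5 lower, 5 higher and 4 not passed. Beside transport motors they include Kif2a, which also acts at spindle poles, Kif7, Kif21a, Kif21b and Kif24. Among all tested genes 29.4% were lower and 31.7% higher, so these counts are not read as a result about the other motors. Of the 14, 13 (all but Kif24) lay between 0.747 and 1.75 times the control mean, and 9 of the 13 were called. Rise and fall here mean that limma, run on log2(value + 1) for all tested genes, gave a Benjamini-Hochberg adjusted p no higher than 0.05. In RNA from a whole culture, fewer cells in division and less RNA per dividing cell cannot be told apart.

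Over the 26 tested rows, Kif1bp included, 16 fell, 6 rose and 4 did not pass. Among all tested genes 61.1% were called, 29.4% as lower and 31.7% as higher. The called share of tested Kif genes was 84.6%, with 61.5% lower and 23.1% higher. At a fall of at least 2-fold on the log2(value + 1) scale, 12 Kif genes passed, where 7.18% of all tested genes did, and 0 rose as much. The median log2 fold change (serum-starved minus control) was -0.38 over the tested Kif genes and 0.029 over all tested genes. Groups did not overlap for 23 of the 26, against 68.2% of all tested genes. When serum-starved replicate 2, serum-starved replicate 3 or control replicate 2 was left out, 3 Kif genes rose in place of 6. These counts are shaped by the filter. Kif2c, Kif4a, Kif14, Kif15, Kif18b, Kif20b and Kif24, 7 genes, reached 1 in control libraries alone and so had to differ. Of the 16 genes at 1 or above in all 6 libraries, 6 fell, 6 rose and 4 did not pass.

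**Figure D1:**
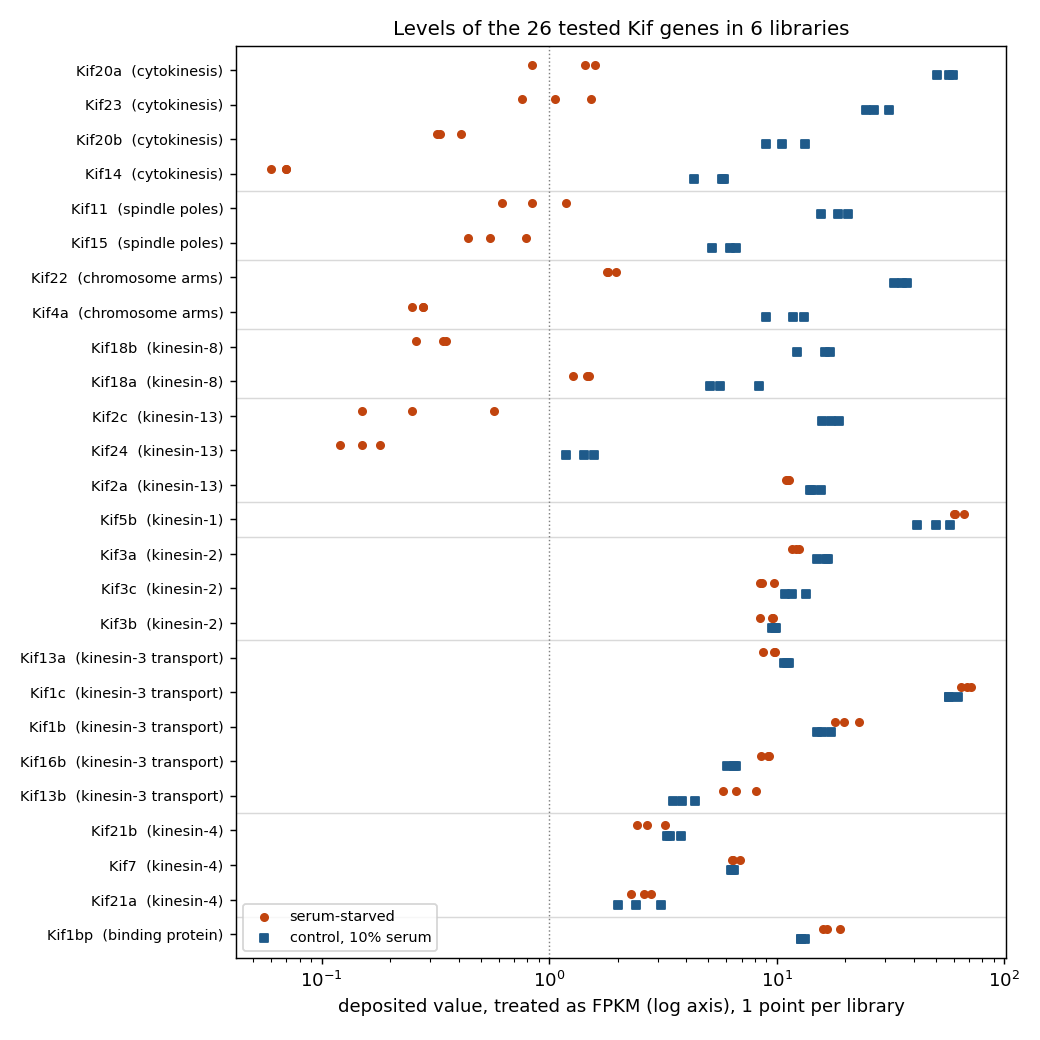
Deposited value of each tested Kif gene (log axis), 1 point per library, with serum-starved libraries as circles above control libraries as squares, and genes grouped by role. From Kif20a to Kif24 every serum-starved point lies left of every control point by a wide gap, with the narrowest at Kif18a, whereas genes from Kif2a downward stay close together.

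Cytokinesis motors included Kif20a, the largest fall on the log2(value + 1) scale. By the ratio of means, Kif14 (79.8-fold), Kif2c (53.7-fold) and Kif18b (48.2-fold) were further below control than Kif20a (43.4-fold). Kif20a (gene ID 361308) carries the Aurora B complex to the central spindle of the dividing cell. It stood at 1.59, 0.84 and 1.43 in serum-starved libraries, against 57.23, 50.76 and 59.56 in control libraries. No serum-starved value came near the control range, and the log2 fold change was -4.65 ± 0.132 (SE, limma adjusted p = 1.09e-07, n = 3 per group). Kif23 (gene ID 315740) pairs with Racgap1 to form centralspindlin, the bundler of the midzone. Its values were 1.52, 0.76 and 1.06 in serum-starved and 31.15, 24.58 and 26.71 in control libraries, 24.7-fold lower by the ratio of means. Kif20b (gene ID 309523), a motor of late cytokinesis, was at 0.41, 0.32 and 0.33 without serum and at 13.3, 8.94 and 10.5 with it. Kif14 (gene ID 360849), which binds citron kinase and the bundling protein Prc1, was nearly gone from serum-starved libraries, at 0.07, 0.07 and 0.06, against 5.77, 4.31 and 5.87 in controls. Such small values carry only 2 decimals, so the 79.8-fold ratio of its means is imprecise. The 4 cytokinesis genes had a median change of -3.44 on the log2(value + 1) scale, with Kif14 and Kif20b in the test through control libraries alone.

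Kinesins of the spindle poles and chromosome arms were low without serum as well. Kif11 (gene ID 171304), the motor also called Eg5 that pushes spindle poles apart, was at 1.18, 0.62 and 0.84 in serum-starved libraries, against 20.58, 15.72 and 18.59 in control libraries. Kif15 (gene ID 353302), which can keep the spindle bipolar together with Tpx2, had lower control values and a smaller difference. It stood at 0.55, 0.44 and 0.79 in serum-starved and at 6.61, 5.2 and 6.26 in control libraries, 10.2-fold lower by the ratio of means. Kif22 (gene ID 293502) is a chromokinesin that pushes chromosome arms away from the poles. By value it was the division motor with the most transcript left without serum, at 1.97, 1.82 and 1.8, against 37.44, 32.6 and 35.59 in controls. As a share of the control mean it kept 5.29%, less than Kif15 (9.85%) and Kif18a (22.1%). The other chromokinesin, Kif4a (gene ID 84393), also acts with Prc1 at the midzone. It was at 0.28, 0.28 and 0.25 in serum-starved and at 13.2, 9 and 11.8 in control libraries. Reads of Kif4a and its pseudogene Kif4b could be exchanged in counting. Kif4b never passed 0.16 in any library.

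Kinesin-8 motors act on microtubule plus ends, Kif18a at kinetochores and Kif18b on astral microtubules. Kif18b (gene ID 303575) was at 0.35, 0.26 and 0.34 in serum-starved and at 17.17, 12.32 and 16.33 in control libraries. Kif18a (gene ID 362186) had the smallest difference of the division set, to 1.27, 1.46 and 1.49, against 8.35, 5.1 and 5.62 in controls. Its groups did not overlap and its log2 fold change was -1.59 ± 0.156 (SE, limma adjusted p = 5.6e-05). The kinesin-13 family does not walk but peels tubulin from microtubule ends. Kif2c (gene ID 171529), also called MCAK, which frees wrongly attached chromosomes, was at 0.57, 0.15 and 0.25 in serum-starved and at 18.86, 15.87 and 17.37 in control libraries. The family member Kif24 (gene ID 313170), which in mammalian cells restrains cilium assembly at the mother centriole, was low in both groups. It had 0.15, 0.12 and 0.18 without serum and 1.58, 1.18 and 1.42 with it, just inside the filter. Kif2a (gene ID 84391), a depolymerase of spindle poles and of resting cells, kept most of its level, at 11.19, 11.3 and 11.02 in serum-starved and 15.6, 14.02 and 14.25 in control libraries (log2 fold change -0.36 ± 0.07, SE, limma adjusted p = 0.00235).

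Division kinesins moved together across control libraries, and less so across serum-starved ones. Control replicate 2 held the lowest of the control values for all 11 of them, and control replicate 1 the highest for 9. Among serum-starved libraries, replicate 1 was highest for 7 and replicate 2 lowest for 7. Replicate 3 was highest for 2 and lowest for 3, replicate 1 was lowest for 1, and Kif4a and Kif14 tied for highest. Most of these serum-starved values were below 1 and given to 2 decimals, so their order is coarse. Shifts between libraries of a group were small beside the difference between groups. What differed between replicate libraries was not tested.

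Upstream sequence is shown for the 4 genes with a promoter entry that changed most on the log2(value + 1) scale, Kif20a, Kif2c, Kif23 and Kif22. By the ratio of means Kif18b (48.2-fold) and Kif4a (42-fold) would stand before Kif23 (24.7-fold) and Kif22 (18.9-fold). For contrast it is shown for Kif1c and Kif5b, the most abundant transport motors, which were added after their values were seen. Genes peaking in late cell cycle are known to carry CHR elements (TTTGAA and variants such as TTTAAA) near their start, often beside CCAAT boxes. The sequences are the 130 bases before the RefSeq start on GRCr8, 5′ to 3′ along the gene. Capitals mark the motif TTTGAA, the motif TTTAAA and the motif CCAAT in either orientation, so that ATTGG is a CCAAT box and TTCAAA a reversed TTTGAA. The windows are chr18:26504292-26504421 (plus strand) for Kif20a, chr5:135899213-135899342 (minus) for Kif2c and chr8:71320585-71320714 (minus) for Kif23. They are chr1:191080879-191081008 (minus) for Kif22, chr10:55912963-55913092 (plus) for Kif1c and chr17:56185256-56185385 (plus) for Kif5b.
Kif20a: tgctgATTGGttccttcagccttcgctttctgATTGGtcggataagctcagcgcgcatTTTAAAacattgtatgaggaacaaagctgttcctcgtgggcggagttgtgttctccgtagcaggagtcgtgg
Kif2c: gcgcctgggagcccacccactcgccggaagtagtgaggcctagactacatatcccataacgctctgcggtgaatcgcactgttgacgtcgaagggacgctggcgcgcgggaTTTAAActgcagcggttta
Kif23: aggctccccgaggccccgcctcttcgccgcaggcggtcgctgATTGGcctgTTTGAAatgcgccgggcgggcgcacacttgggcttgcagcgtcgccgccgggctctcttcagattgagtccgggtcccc
Kif22: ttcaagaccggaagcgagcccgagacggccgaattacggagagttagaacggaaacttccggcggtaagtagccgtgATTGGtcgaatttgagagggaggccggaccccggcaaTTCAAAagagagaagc
Kif1c: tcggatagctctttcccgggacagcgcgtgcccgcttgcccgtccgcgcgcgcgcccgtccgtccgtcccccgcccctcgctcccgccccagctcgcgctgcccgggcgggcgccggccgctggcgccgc
Kif5b: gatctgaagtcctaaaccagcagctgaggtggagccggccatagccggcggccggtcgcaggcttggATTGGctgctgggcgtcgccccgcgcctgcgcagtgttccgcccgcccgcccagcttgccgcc

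The printed stretches of these 4 genes each hold TTTGAA or TTTAAA, a match that rests on this choice of 4, since the whole window of Kif18b holds neither of them and no CCAAT box. Of the printed genes with a CHR form, 3 (all but Kif2c) hold a CCAAT box farther upstream of it. In Kif23 the CCAAT box (ATTGG) began 88 bases and TTTGAA 79 bases before the start. Over the whole window of 250 bases before and 50 after the start, 22 of the 26 tested genes had an entry. TTTGAA or TTTAAA was found for 8 of 10 division kinesins (80.0%) and for 0 of 11 other motors, where 27.9% of all 27457 gene windows held one. CCAAT was found for 6 of the 10 division kinesins, for 4 of the 11 others and for 37.7% of all windows. Kif18a and Kif18b were the division genes with neither CHR form in the window. Kif24, which fell and is counted among the 11 others, held CCAAT boxes but neither form. Of the 8 division genes with a form, Kif2c, Kif4a, Kif15 and Kif20b were in the test through control libraries alone. The division set was drawn with earlier results of these data known, so the split is not read as a result about that grouping. A match describes letters in a window and is not evidence of a bound site.

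**Figure D2:**
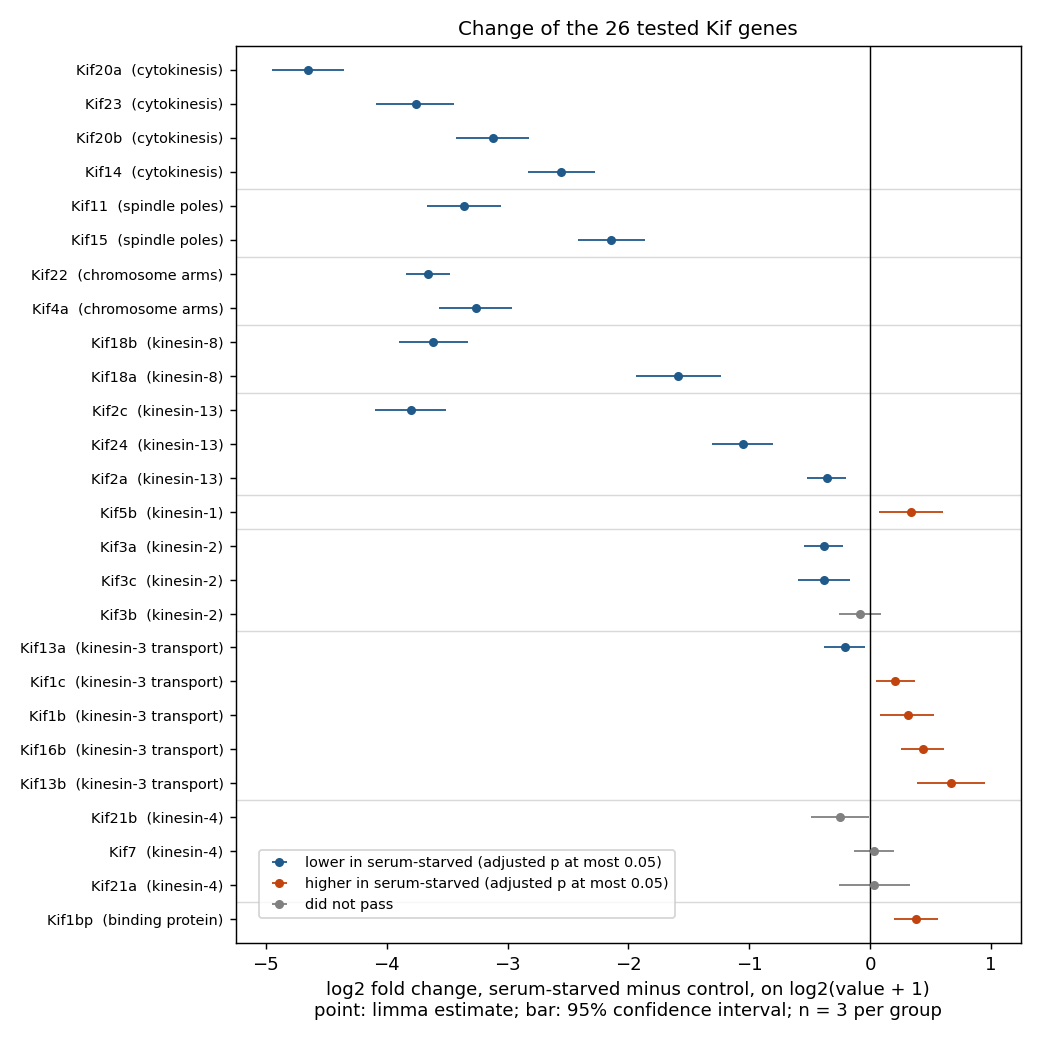
Log2 fold change of each tested Kif gene (serum-starved minus control on log2(value + 1)), with the limma estimate as a point and its 95% confidence interval as a bar, n = 3 libraries per group. Division kinesins lie between -4.65 (Kif20a) and -1.59 (Kif18a). Kif24 lies nearest to them, at -1.05, and the remaining motors lie between -0.38 and 0.67.

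Among transport kinesins the best expressed rose slightly. Kif5b (gene ID 117550), the broadly expressed heavy chain of conventional kinesin-1, was at 60.97, 66.83 and 59.82 in serum-starved libraries, against 57.85, 49.88 and 41.48 in control libraries. All serum-starved values were above all control values, but the control values were scattered. The log2 fold change was 0.34 ± 0.114 (SE, limma adjusted p = 0.0314). This call was lost under median-ratio scaling (adjusted p = 0.0541), with no filter (adjusted p = 0.0586) and without any 1 of serum-starved replicates 1, 2 or 3 or control replicates 2 or 3. The highest adjusted p among these removals was 0.0985, and removal of control replicate 3 reduced the log2 fold change to 0.21. Heavy chains Kif5a and Kif5c, which are mainly neuronal, stayed below the filter, at no more than 0.27 and 0.78 in any library.

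Kinesin-3 motors carry vesicles and endosomes, and 4 of the 5 tested rose while 1 fell, where 31.7% of all tested genes rose and 29.4% fell. Kif13b (gene ID 305967), a vesicle motor, had the largest rise of any Kif gene tested, at 5.78, 8.12 and 6.61 in serum-starved and 3.51, 3.85 and 4.35 in control libraries. Its log2 fold change was 0.67 ± 0.123 (SE, limma adjusted p = 0.00175). Kif16b (gene ID 311478), an early endosome motor, was at 8.53, 9.16 and 9.25 without serum and at 6.6, 6.04 and 6.49 with it. Both calls held under each of the 14 alternatives run. Kif1b (gene ID 117548), a motor of mitochondria and synaptic vesicle precursors, was at 18.01, 22.98 and 19.66 in serum-starved and 17.31, 15.84 and 15.04 in control libraries. Kif1c (gene ID 113886), the most abundant kinesin of serum-starved cells, was at 64.44, 71.4 and 68.79, against 56.94, 56.88 and 62.54 in controls. For Kif1b and Kif1c the groups did not overlap, yet neither rise was firm. Kif1b had an adjusted p = 0.0238 in limma, and up to 0.0763 when 1 of control replicates 2 and 3 or serum-starved replicates 2 and 3 was left out. Kif1c had an adjusted p = 0.0264, which was 0.0603 under median-ratio scaling and up to 0.0928 when 1 of control replicates 1 and 2 or serum-starved replicates 2 and 3 was left out. Removing serum-starved replicate 2, serum-starved replicate 3 or control replicate 2 thus left 2 kinesin-3 genes called as higher in place of 4.

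Kif13a (gene ID 308173), which moves recycling endosomes, went the other way from its paralog Kif13b. It was at 8.71, 9.87 and 9.74 in serum-starved and 11.14, 10.74 and 11.27 in control libraries (log2 fold change -0.21 ± 0.075, SE, limma adjusted p = 0.039). The call was lost without any 1 library other than serum-starved replicate 2, at an adjusted p of up to 0.127.

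Kinesin-2 drives outward transport in cilia as a heterotrimer of Kif3a, Kif3b and the adaptor Kifap3, and Kif3c can replace Kif3b. Kif3a (gene ID 84392) fell, at 12.17, 11.66 and 12.5 in serum-starved and 16.77, 16.46 and 15.01 in control libraries (log2 fold change -0.38 ± 0.072, SE, limma adjusted p = 0.002). Kif3c (gene ID 85248) was at 9.74, 8.48 and 8.65 without serum and 13.39, 11.72 and 10.87 with it, and fell with an adjusted p = 0.00761. In both genes every serum-starved value was below every control value. Kif3b (gene ID 296284) did not pass, at 9.55, 9.61 and 8.42 in serum-starved and 9.82, 9.55 and 9.96 in control libraries. Its log2 fold change was -0.08, with a 95% confidence interval of -0.26 to 0.09.

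None of the 3 tested non-mitotic kinesin-4 genes passed. Kif7 (gene ID 293047), a regulator of Hedgehog signalling at the tip of the primary cilium, was nearly level, at 6.36, 6.89 and 6.45 in serum-starved and 6.36, 6.47 and 6.32 in control libraries. Its log2 fold change of 0.03 had a 95% confidence interval of -0.13 to 0.2. Kif21a (gene ID 300158), which slows microtubule growth, was at 2.28, 2.6 and 2.81 without serum and 3.11, 2.4 and 2 with it, the control values spanning the others (95% confidence interval -0.26 to 0.33). Its paralog Kif21b (gene ID 289397) was at 2.44, 3.23 and 2.7 in serum-starved and 3.3, 3.78 and 3.39 in control libraries (limma adjusted p = 0.0682). Kif21b passed as lower under median-ratio scaling (adjusted p = 0.045), quantile normalization (0.0348), library weights (0.0155) and without serum-starved replicate 2 (0.031).

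Kif1bp (gene ID 606294), the kinesin-binding protein that holds some kinesins off microtubules, rose. It was at 18.92, 16.62 and 15.92 in serum-starved and 12.72, 12.73 and 13.24 in control libraries (log2 fold change 0.38 ± 0.079, SE, limma adjusted p = 0.00324). The 12 rows below the filter never passed 1.02. Just outside it was Kif9, a gene of motile cilia, at 0.92, 0.98 and 1.02 in serum-starved and 0.46, 0.54 and 0.42 in control libraries. Kif27, a relative of Kif7, was at 0.26, 0.29 and 0.28 without serum and 0.75, 0.61 and 0.52 with it, and Kif6 was between 0.17 and 0.39 in all 6 libraries. Kif1a, Kif4b, Kif12, Kif17, Kif19, Kif26a and Kif26b, 7 rows, stayed at or below 0.2.

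Summed over motors, the family had a level of 233, 252 and 238 FPKM in serum-starved libraries and 455, 396 and 421 FPKM in control libraries. The loss was in the division set. It summed to 9.76, 7.02 and 8.64 FPKM in serum-starved and 230, 184 and 214 FPKM in control libraries, or 3.54% ± 0.709 and 49.3% ± 2.38 of the motor total (SD, n = 3 each). Other kinesins summed to 223, 245 and 229 FPKM without serum and 225, 211 and 207 FPKM with it, ranges that overlap. Kif1c and Kif5b together made up 54.3% ± 0.551 of the motor total in serum-starved and 25.6% ± 1.21 in control libraries (SD, n = 3 each). In controls Kif20a stood beside them, ranking second of all kinesins in each of the 3 control libraries. Per 1000000 of each library's summed values, division kinesins held 18.4 ± 2.49 in serum-starved and 399 ± 46.9 in control libraries (SD, n = 3 each). Other kinesins held 507 ± 38.2 in serum-starved and 408 ± 19.7 in control libraries on that scale. Their ranges there, 471 to 547 and 396 to 431, did not overlap, so whether they overlap depends on the scaling. No test was made on these sums.

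**Figure D3:**
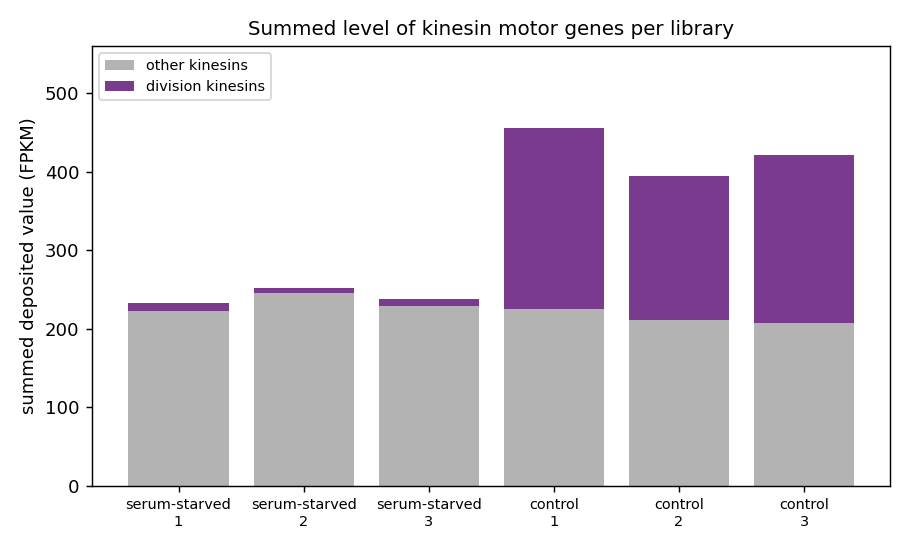
Summed deposited values (FPKM) of the kinesin motor genes in each library, with division kinesins stacked on the others (Kif1bp and Kif4b left out). Division kinesins are 2.79% to 4.2% of the bar in serum-starved libraries and 46.6% to 50.9% in control libraries.

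Paralogs of one family were set against each other within each library, as the difference of their log2(value + 1) levels, for the 9 of 11 listed pairs in which both genes were tested. With 3 libraries against 3, the smallest two-sided p an exact permutation test can give is 0.1, so no pair could pass. Kif2c and Kif2a differed most in their response. In serum-starved libraries Kif2c stood below Kif2a, by -2.96, -3.42 and -3.27, and in control libraries it was slightly above it, by 0.26, 0.17 and 0.27. The shift of -3.45 gave the smallest exact permutation p of 0.1, or 0.15 with Benjamini-Hochberg adjustment over 9 pairs. Kif18b and Kif18a also changed places, with a mean difference of -0.87 ± 0.11 in serum-starved and 1.16 ± 0.22 in control libraries (SD, n = 3 each). Kif20a against Kif20b shifted by -1.53 and Kif11 against Kif15 by -1.22, without a change of order between the group means. Low values make these sizes depend on the pseudocount. With 0.1 in place of 1, the shift was -0.79 for Kif20a against Kif20b and -3.13 for Kif18b against Kif18a. Kif2c, Kif15, Kif18b and Kif20b were in the test through control libraries alone. The Kif13b to Kif13a difference narrowed to -0.42 ± 0.15 in serum-starved libraries, against -1.3 ± 0.12 in controls (SD, n = 3 each). Each of these pairs, and Kif3b against Kif3a, had groups that did not overlap, and for each the exact permutation p was 0.1 before and 0.15 after adjustment. For Kif3c against Kif3a, Kif1c against Kif1b and Kif21b against Kif21a, the groups overlapped (exact permutation p = 1, 0.5 and 0.3).

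**Figure D4:**
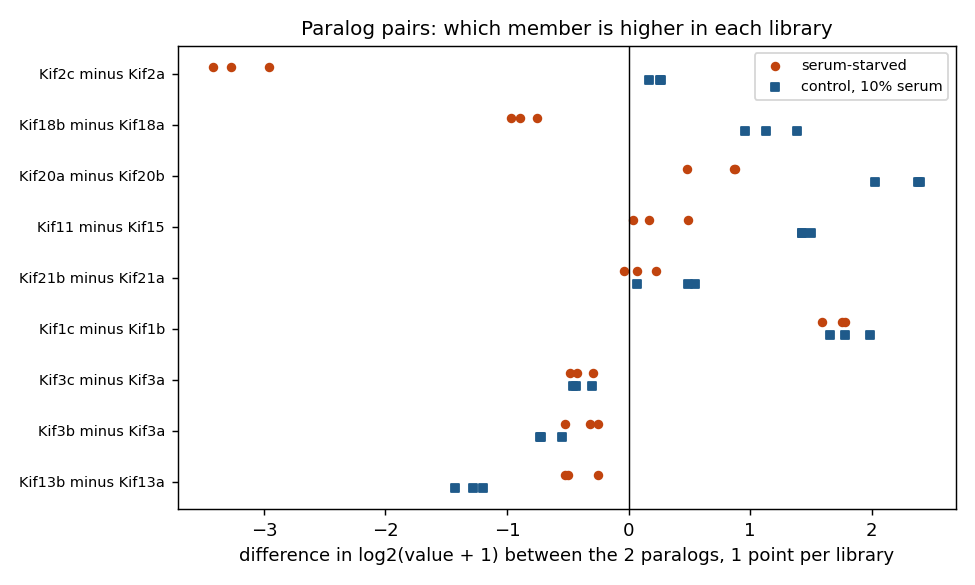
Difference in log2(value + 1) between 2 paralogs, 1 point per library, serum-starved as circles above control as squares. Kif2c minus Kif2a and Kif18b minus Kif18a lie below 0 in serum-starved and above 0 in control libraries, while Kif3c minus Kif3a overlaps.

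Kinesins whose names fall outside the symbol rule were 3 lower and 1 higher of 4 tested, with Kifc1 in the test through control libraries alone. Kifc1, a minus-end motor that focuses spindle poles, was at 0.76, 0.63 and 0.71 in serum-starved and 26.25, 22.71 and 26.68 in control libraries. Cenpe, the kinetochore kinesin that draws chromosomes to the spindle equator, averaged 0.843 ± 0.163 without serum and 13.1 ± 2.77 with it (SD, n = 3 each, limma adjusted p = 1.2e-06). Kifc3 fell, at 26.3 ± 2.19 in serum-starved and 42.3 ± 3.54 in control libraries (limma adjusted p = 0.000272). Kifc2 rose, at 3.17 ± 0.689 in serum-starved and 1.36 ± 0.271 in control libraries (limma adjusted p = 0.00162).

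Partners of mitotic kinesins fell in 18 of 19 cases (median -3.65). Hmmr and Ect2 were among the 18 through control libraries alone. On the log2(value + 1) scale the 4 lowest were Anln (-5.03), Prc1 (-4.53), Plk1 (-4.46) and Hmmr (-4.42). By the ratio of means Hmmr was lowest (56.8-fold), then Plk1 (46.7-fold) and Anln (42.6-fold), and Prc1 (31.3-fold) was not among the first 4. Numa1, a spindle pole protein that is also a nuclear protein of resting cells, rose by 0.53 ± 0.099 (log2, SE, limma adjusted p = 0.00201). Light chains and cargo adaptors of transport kinesins went both ways, with 9 of 23 higher, 5 lower and 9 not passed (median 0.08). Mapk8ip1, the adaptor also called JIP1, rose to 18.9 ± 0.583 in serum-starved libraries, against 11.2 ± 0.194 in controls, and Dennd4c rose as well. Fez2 fell, and Grip1, in the test through control libraries alone, was at 0.82 ± 0.221 in serum-starved and 3.27 ± 0.255 in control libraries.

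Dynein and dynactin genes, the motor system that runs opposite to most kinesins, were lower in 9 of 23 tested cases, higher in 2 and not passed in 12 (median -0.02). The largest falls were in Dynlt1 (-1.06), Nde1 (-0.98), Dynlrb1 (-0.64) and Bicd2 (-0.54). After quantile normalization 5 fell and 7 rose, so the balance of this list turns on the scaling. Cilium transport and Hedgehog genes, the setting of Kif3a, Kif7 and Kif24, rose in 13 of 33 cases, fell in 5 and did not pass in 15 (median 0.16). Gli3, a transcription factor of the Hedgehog pathway, had the largest rise of the list, averaging 21 ± 3.63 in serum-starved and 9.26 ± 1.4 in control libraries (SD, n = 3 each). The transport genes Wdr19 and Ift46 rose by 0.74 and 0.53 on the log2 scale, and Bbs7 fell by 0.52. Shares of these lists near the background of 29.4% lower and 31.7% higher are not results about the lists.

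**Figure D5:**
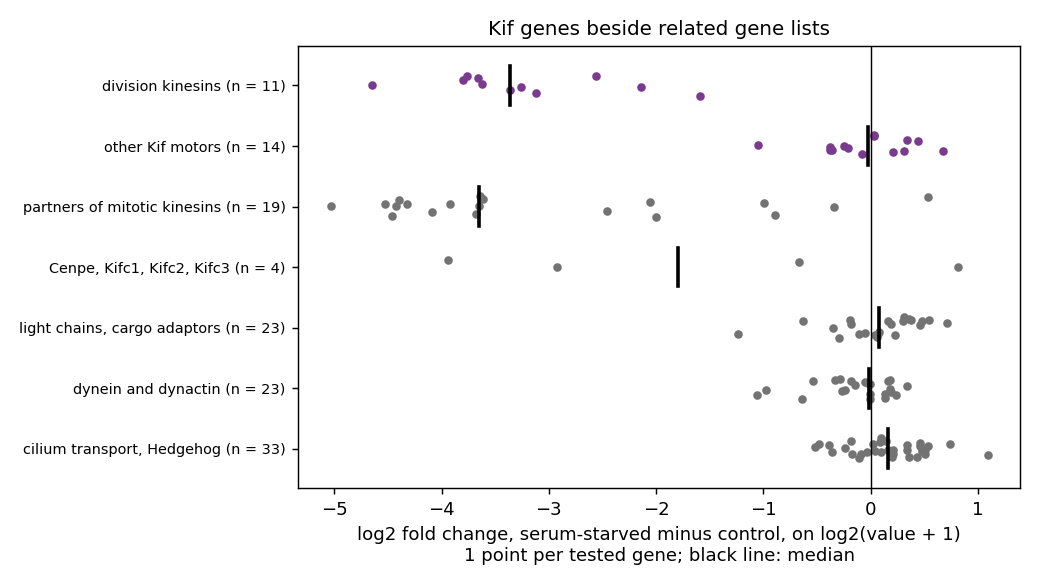
Log2 fold change of each tested gene (serum-starved minus control) for Kif genes and related lists, 1 point per gene with the median as a black line. The division kinesins (median -3.36) and their partners (median -3.65) lie far below 0, and the other lists, apart from the 4 further kinesins, have medians between -0.02 and 0.16. The division set was drawn with earlier results known. In it 6 genes, and Hmmr and Ect2 among the partners, were in the test through control libraries alone and so had to differ.

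Several values carry an assignment limit. RefSeq names pseudogene copies of Kif1c, Kif11, Kif13a and Kif18b, so reads of these 4 genes could have been divided with a copy. By the same annotation, 8 tested Kif genes overlap a measured neighbour. Whether the counting was strand-specific is not stated in the labels or headers. One such neighbour, Ticrr at the Kif7 locus, was itself lower without serum, at 0.22, 0.3 and 0.17, against 3.07, 1.97 and 2.87 in control libraries. Dimt1 at the Kif2a locus had lower values without serum too, as Kif2a did, at 5.22, 4.73 and 4.54, against 7.9, 7.95 and 6.46. Cdc23 at the Kif20a locus went the other way, at 16.34, 16 and 17.19 in serum-starved and 15.14, 15.02 and 14.07 in control libraries. The part of these neighbours in the Kif values was not tested.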

How the data were processed

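The authors deposited 1 table per library with rounded values per gene and no unit named in the headers. The deposited values are treated as FPKM, scaled by the authors before deposit to gene length and library, since they are fractional and sum differently by library. TPM over a wider gene set is possible. The submitters' processing notes list HISAT2, StringTie, limma, DESeq2 and bcl2fastq 2.0 as tools and mm10 as the build, although gene identifiers are rat. Annotation and the handling of multi-mapping reads are not given in the sources used here. All 38 Kif rows matched a GRCr8 gene table by gene ID.

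The 11493 genes reaching 1 in 3 or more of 6 libraries (5600 did not) were analysed as log2(value + 1), which understates changes of low genes. The test was limma 3.58.1 (R 4.3.3), serum-starved minus control, with an intensity trend and 4 residual degrees of freedom, and Benjamini-Hochberg adjustment over all tested genes. Paralog pairs used two-sided exact permutation tests (scipy 1.17.1, Python 3.11.15). Members, roles and lists were chosen with earlier results of these data known. All tested Kif genes are named, and up to 4 called genes with the largest change in each related list. Numa1, Ticrr, Dimt1 and Cdc23 were named after their values were seen. Protein sequences were not used here. Simulated data had 11493 genes, with 100 changed by 1 and 100 by 2 on the log2 scale. Of these limma recovered 91% and 100%, with 6 false calls. In the real data 61.1% of tested genes were called, so the simulated setting differs and its rates may not carry over. Alternatives were 2 pseudocounts, 2 filters, 2 scalings, library weights, a replicate block and leaving out each library, with the tested genes of the full set kept.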

Additional observations from a re-analysis of the deposited data

How the results depend on the processing

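Of the 22 called Kif genes, 18 kept their call under every one of the 14 alternatives that tested them, among them all 11 division kinesins, of which 6 were in the test through control libraries alone, so that their calls say nothing of stability. Kif1b, Kif1c, Kif5b and Kif13a, 4 genes, lost it under at least 1, and the cause was not tested. Scaling to each library's summed values, which were lower in serum-starved libraries, was not among the alternatives. Calls on small changes, such as those of Kif2a, Kif3a and Kif3c, were thus not tried on that scale. The counts of Kif genes that fell ranged from 15 to 17 and of those that rose from 3 to 5 when single libraries were left out, with 3 rising when control replicate 2 or either of serum-starved replicates 2 and 3 was absent. With no filter 18 fell and 9 rose. For kinesin-1, 2 genes, Kif5a and Kif5c, rose with no filter, at no more than 0.27 and 0.78 in any library. There Kif5b did not pass (limma adjusted p = 0.0586). Under median-ratio scaling 0 kinesin-1 genes rose, with 0 to 1 when single libraries were left out. For kinesin-3, 2 to 4 rose and 0 to 1 fell without single libraries. Of kinesin-4 genes 1, Kif27, fell with no filter, and 1, Kif21b, under median-ratio scaling, after quantile normalization and with library weights, with 0 to 1 without single libraries. With the filter at 5, 0 of the kinesins outside the symbol rule rose, since Kifc2 was no longer tested. Of dynein and dynactin genes 5 fell and 7 rose after quantile normalization, and 4 rose with library weights. Deviations from the group mean correlated at 0.037, -0.162 and 0.101 between same-numbered libraries and at -0.164 to 0.164 between unlike-numbered ones. With 3 libraries per group this cannot tell whether the numbers pair them. With the number as a replicate block 15 Kif genes fell, 6 rose and 0 kinesin-3 genes fell (Kif13a, adjusted p = 0.0646 in limma). Over all genes the median log2 fold change was -0.01 under median-ratio scaling and 0.065 after quantile normalization, against 0.029 as deposited. Values of division kinesins without serum were near or below 1 and given to 2 decimals, so with depth unknown their ratios are coarse.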

Other observations

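Low Kif genes left out by the filter were also fitted with no filter. There limma with Benjamini-Hochberg adjustment called 5 of them at values no higher than 1.02, besides Kif4b. In the filtered test 61.1% of all tested genes were called, and the called share among genes below the filter was not worked out. These calls are therefore not read as a result about low Kif genes. Kif9, whose product belongs to motile cilia, was higher without serum (log2 fold change 0.42, adjusted p = 0.00103), as were the neuronal heavy chains Kif5a (0.21, adjusted p = 0.0153) and Kif5c (0.19, adjusted p = 0.0414). Kif27 was lower (-0.35, adjusted p = 0.0032), and so was Kif19, which in mice shortens cilia (-0.15, adjusted p = 0.00437). Kif19 was at 0.08, 0.04 and 0.04 in serum-starved and 0.16, 0.18 and 0.17 in control libraries. Values this low, given to 2 decimals, are coarse. The pseudogene Kif4b was listed at 0.06, 0.16 and 0.11 in serum-starved libraries and at 0, 0 and 0.04 in controls (adjusted p = 0.0322). The neuronal marker list had overlapping sums in the groups, 1.46 to 1.81 in serum-starved and 1.48 to 1.75 in control libraries.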
